A study of Mus musculus with 4 samples.

Results

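Scavenger receptors are the proteins with which macrophages bind modified lipoproteins, haemoglobin complexes, bacteria and dying cells and bring them into the cell. The 10 genes described here are Mrc1, Cd163, Cd36, Msr1, Scarb1, Marco, Stab1, Olr1, Cd68 and Cd5l, taken by symbol from the platform annotation of an Affymetrix expression array. All 10 were on the array, with 1 probe set each, out of 22180 genes that had a probe set of their own. Each of the 10 passed the filter on low levels, a mean log2 value of at least 2.44 over the arrays, as did 13308 genes in all.

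The cells were mouse bone marrow-derived macrophages, grown from marrow of animals aged 8 to 12 weeks with medium conditioned by L929 cells, a fibroblast line that secretes the macrophage growth factor CSF1. There were 4 groups with 1 array each: Hilpda knockout cells after 24 h and after 12 h, and wild-type cells after 24 h and after 12 h. Knockout cells came from HilpdaΔMΦ mice, in which macrophages lose the gene for a lipid droplet protein that inhibits triglyceride breakdown, and wild-type cells from their Hilpda flox/flox littermates. All 4 groups received fatty acids at 600 µM, palmitate and oleate at 1:2 on albumin, so no comparison here is with cells that received none. Each array carried pooled RNA of 3 samples, which leaves 1 measurement per group and no error between replicates. The labels name neither the Cre driver nor whether the pooled samples came from separate animals.

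Class A receptors such as MSR1 and MARCO carry a collagen-like stalk, class B receptors such as CD36 and SR-BI (gene Scarb1) form a loop with both ends in the membrane, and LOX-1 (gene Olr1) is a lectin-like receptor for oxidised lipoprotein. The mannose receptor (gene Mrc1), CD163 and stabilin-1 (gene Stab1) clear glycoproteins, haemoglobin bound to haptoglobin, and matrix proteins, and are widely used as markers of alternatively activated or resident macrophages. CD36 also takes up long-chain fatty acids, the substrate given to these cells.

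Background signal was read from 1405 olfactory, vomeronasal and trace amine receptor genes, chosen by symbol and taken to be mostly silent in macrophages. The 95th percentile of their levels lay between 2.61 and 2.65 on the 4 arrays. Of the 10 genes, 8 were above it on every array, and Marco and Olr1 were above it on the 12 h arrays alone. All 10 macrophage markers examined, among them Adgre1 and Csf1r, were above it on every array. Hilpda was at 5.27 in knockout and 5.47 in wild-type cells at 24 h, and at 5.41 in knockout and 5.93 in wild-type cells at 12 h. Nothing in the labels tells whether its probes lie in the deleted stretch. The arrays correlated pairwise at 0.984 or more over all probe sets.

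**Figure D1:**
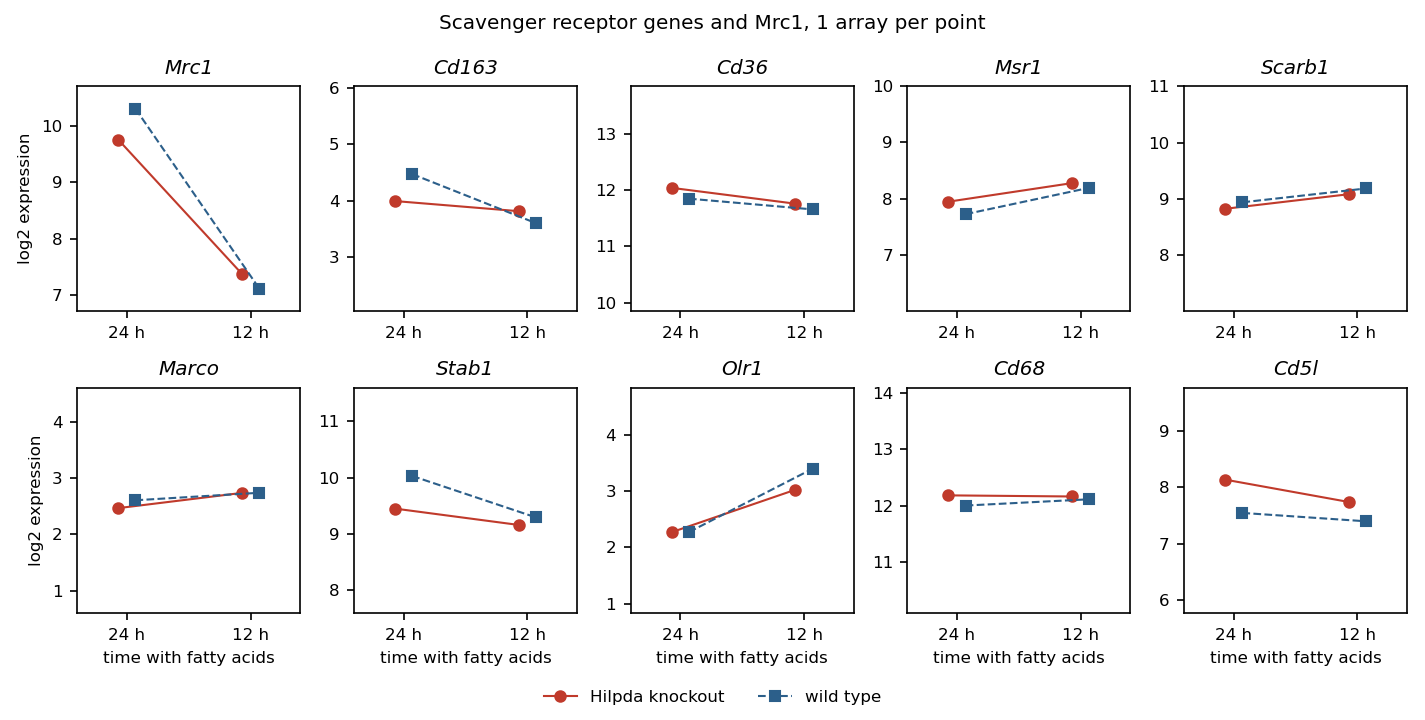
Log2 expression of the 10 genes at 24 h and 12 h, 1 panel per gene, with knockout arrays as red circles and wild-type arrays as blue squares; each point is 1 array and every vertical axis spans the same number of log2 units. Mrc1 stands out with 9.76 in knockout and 10.31 in wild-type cells at 24 h, both far above its 12 h values of 7.37 and 7.11.

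Between the times, Mrc1 differed most of the 10 genes. Cd163 and Stab1 were over 1.5-fold higher at 24 h in wild-type cells, and Olr1 was at background at 24 h in both genotypes and above it at 12 h. Cd36, Msr1, Scarb1, Marco and Cd68 stayed under 1.5-fold in every pairwise comparison, with a largest difference of 0.47 on the log2 scale. Between the genotypes at 24 h Cd5l was 1.51-fold higher in knockout cells, and Stab1, Mrc1 and Cd163 were 1.49-fold, 1.46-fold and 1.39-fold lower. No such pairwise difference could be tested, since each rests on 2 arrays.

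The promoters of the 5 genes past 1.5-fold in a pairwise comparison, Olr1 by its measured values, are shown as background to these levels, with GAGGAA in capitals. These letters are a core of the sites bound by PU.1, a factor that directs macrophage gene expression, and read TTCCTC when they lie on the other strand. Each promoter is 300 bases from RefSeq (GRCm38.p6), from 250 bases before to 50 bases after the annotated start, read 5′ to 3′ on the gene's strand. They lie at chr2:14229164-14229463 (plus strand) for Mrc1, chr6:124304401-124304700 (plus strand) for Cd163, chr14:31168592-31168891 (minus strand) for Stab1, chr6:129507116-129507415 (minus strand) for Olr1 and chr3:87357631-87357930 (plus strand) for Cd5l.
Mrc1: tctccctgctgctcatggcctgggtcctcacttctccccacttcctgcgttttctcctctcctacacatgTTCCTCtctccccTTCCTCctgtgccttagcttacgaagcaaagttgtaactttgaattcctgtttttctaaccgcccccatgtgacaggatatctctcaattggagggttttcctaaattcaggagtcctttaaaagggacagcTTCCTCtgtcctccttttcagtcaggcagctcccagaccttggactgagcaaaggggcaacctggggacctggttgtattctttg
Cd163: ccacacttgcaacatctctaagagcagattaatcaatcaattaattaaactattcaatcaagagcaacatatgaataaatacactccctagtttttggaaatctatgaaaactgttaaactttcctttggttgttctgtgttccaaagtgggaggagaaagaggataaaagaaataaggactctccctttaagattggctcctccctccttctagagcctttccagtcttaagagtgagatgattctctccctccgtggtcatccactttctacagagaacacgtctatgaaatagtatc
Stab1: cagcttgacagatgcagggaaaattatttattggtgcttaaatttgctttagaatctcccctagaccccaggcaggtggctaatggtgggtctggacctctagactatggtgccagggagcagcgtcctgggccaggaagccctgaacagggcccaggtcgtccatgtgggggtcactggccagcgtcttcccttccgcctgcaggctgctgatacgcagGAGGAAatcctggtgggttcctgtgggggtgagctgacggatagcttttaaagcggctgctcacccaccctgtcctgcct
Olr1: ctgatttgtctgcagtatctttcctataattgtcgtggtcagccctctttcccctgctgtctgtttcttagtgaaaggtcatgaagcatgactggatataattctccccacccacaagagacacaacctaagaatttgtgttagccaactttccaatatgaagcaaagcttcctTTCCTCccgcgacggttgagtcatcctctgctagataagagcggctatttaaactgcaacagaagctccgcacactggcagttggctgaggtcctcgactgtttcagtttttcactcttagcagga
Cd5l: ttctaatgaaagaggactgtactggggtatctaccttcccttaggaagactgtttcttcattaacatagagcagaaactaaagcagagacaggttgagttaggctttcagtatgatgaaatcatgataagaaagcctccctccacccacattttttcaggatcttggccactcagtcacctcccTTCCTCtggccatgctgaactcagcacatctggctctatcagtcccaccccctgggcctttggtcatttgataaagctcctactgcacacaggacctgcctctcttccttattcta
In the Mrc1 promoter 3 matches begin at bases -180, -167 and -35 from the start. Stab1 has a match at -30, Olr1 at -76 and Cd5l at -66, and the Cd163 window has none. Of the 8 genes with a promoter in the table, 6 hold GAGGAA on either strand (Mrc1, Stab1, Olr1, Cd5l, Cd68 and Marco), against 28.3% of all 32851 promoters. TGCTGA, a core of MAF sites, was present in 3 of 8 (Cd36, Cd5l and Stab1), against 19.5%. AGGTCA, a core of nuclear receptor sites, was present in Cd36 and Olr1 (16.3% of all promoters). TGANTCA of AP-1 was present in Cd68 and Olr1 (7.81%), and TTC and GAA spaced by 4 bases, as in STAT6 sites, in Cd36 and Cd5l (6.95%). TATAAA (13.6%) and CACGTG (7.15%) were in none of the 8. Both strands were searched for each motif, and no matches overlapped. A match describes the letters of this window and is not evidence of binding.

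Mrc1 encodes the mannose receptor, an endocytic lectin for mannose-bearing glycoproteins and collagen fragments. Its log2 level was 9.76 at 24 h and 7.37 at 12 h in knockout cells. In wild-type cells it was 10.31 at 24 h and 7.11 at 12 h. The 24 h arrays lay far above the 12 h arrays in both genotypes, and the wild-type arrays were the highest and the lowest of the 4. The time difference was 2.39 or 5.22-fold in knockout cells and 3.19 or 9.14-fold in wild-type cells. Of 13308 genes, only 1 had a larger positive time difference in each genotype, Slc40a1 in knockout cells and the adhesion receptor gene Adgre4 in wild-type cells.

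Over both genotypes, limma gave a time difference for Mrc1 of 2.79 ± 0.22 (SE) with an unadjusted p of 0.00016 and a Benjamini-Hochberg adjusted p of 0.119. In this limma fit 0 of 13308 genes (0.00%) had an adjusted p under 0.05 for time, and 1759 (13.2%) had an unadjusted p under 0.05, among them Mrc1, Msr1, Stab1 and Olr1, the last at background at 24 h. Its 1 residual degree of freedom is the change of the genotype difference with time, not an error between replicates. With the variance allowed to follow the level, 540 genes (4.06%) passed in limma, 270 higher and 270 lower at 24 h, and Mrc1 had an adjusted p of 0.00048. Over 6 alternatives of the limma fit the adjusted p of Mrc1 lay between 0.00048 and 0.17.

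A microRNA gene, Mir511, lies within Mrc1 in RefSeq's gene order, and its probe set was among the 3 genes whose pattern over the 4 arrays was closest to that of Mrc1. The mature arm miR-511-3p (chr2:14261051-14261072, plus strand, GRCm38.p6, from RefSeq) is shown because its gene lies inside Mrc1, with its seed, bases 2 to 8, in capitals.
mmu-miR-511-3p: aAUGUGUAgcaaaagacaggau
The Mir511 probe set read 5.06 at 24 h and 2.73 at 12 h in knockout cells, and 5.16 and 2.71 in wild-type cells. Its time differences were 2.33 in knockout and 2.45 in wild-type cells, and its genotype differences -0.10 at 24 h and 0.02 at 12 h. The 12 h values lay little above the background percentiles of 2.61 in knockout and 2.65 in wild-type cells. The size of the time differences is therefore uncertain, and little can be read from the 12 h genotype difference. RNA from Mrc1 introns and from the microRNA cannot be told apart by this probe set.

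The closest pattern of all was that of Slc40a1, which encodes ferroportin, the iron exporter (Euclidean distance 0.25 over the 4 centred log2 values). Slc40a1 was at 8.46 at 24 h and 5.87 at 12 h in knockout cells, and at 8.68 and 5.55 in wild-type cells. Its time differences were 2.59 and 3.13. Ednrb, the endothelin B receptor gene, was at a distance of 0.53, with time differences of 1.90 in knockout and 2.79 in wild-type cells, and Mir511 was at 0.54.

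Between the genotypes Mrc1 was 0.55 lower in knockout cells at 24 h and 0.26 higher at 12 h. The 500 genes closest to Mrc1 in level had central 95% ranges of -0.50 to 0.39 at 24 h and -0.21 to 0.25 at 12 h, so both values lay just outside, in opposite directions. The genotype difference at 24 h less that at 12 h was -0.81. Over both times limma gave -0.14 ± 0.22 (SE) for knockout against wild type, with an adjusted p of 0.934.

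**Figure D2:**
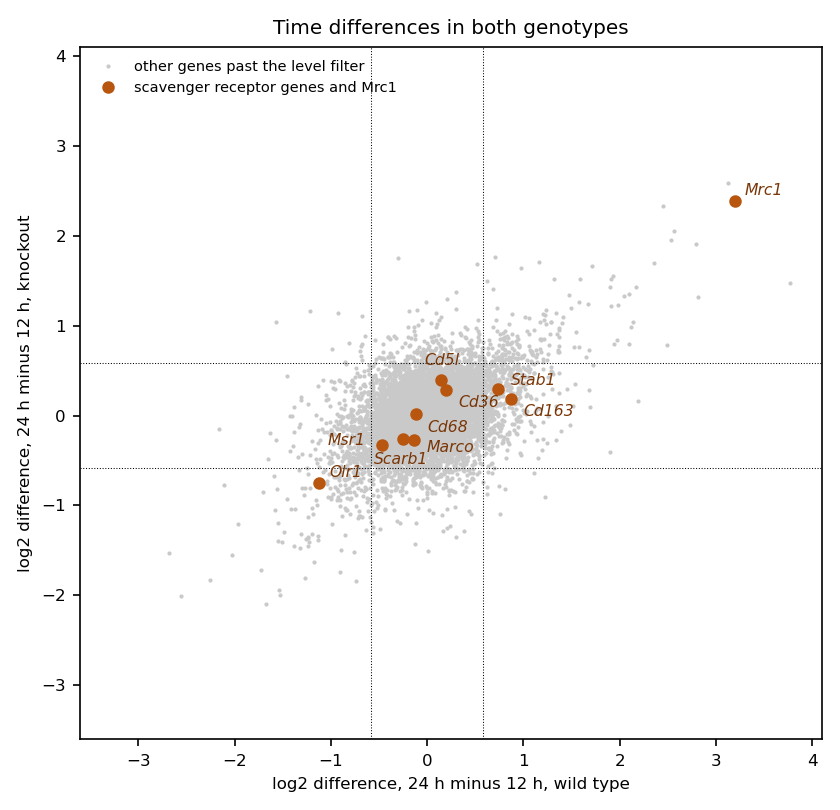
Log2 difference between 24 h and 12 h in knockout cells (vertical axis) and in wild-type cells (horizontal axis), with 1 grey point per gene past the level filter, orange points for the 10 genes and dotted lines at 1.5-fold. Mrc1 lies at the upper right with 2.39 in knockout and 3.19 in wild-type cells, Olr1 at the lower left with measured values of -0.75 and -1.13 and its 24 h levels at background, and Cd163 and Stab1 pass the line on the wild-type axis alone.

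Cd163, the receptor for haemoglobin bound to haptoglobin, was at 3.99 at 24 h and 3.81 at 12 h in knockout cells. In wild-type cells it was at 4.47 at 24 h and 3.60 at 12 h. The wild-type arrays were the highest and the lowest, and the knockout arrays lay between them. Its time difference was 0.18 in knockout and 0.87, or 1.83-fold, in wild-type cells. Its genotype difference was -0.48 at 24 h and 0.21 at 12 h, and the first less the second was -0.69. All of these values lay inside the central 95% of the 500 genes nearest in level, which ran from -0.81 to 0.88 for the wild-type time difference.

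Stab1, which takes up modified lipoprotein, the matrix protein SPARC and cells exposing phosphatidylserine, was at 9.45 at 24 h and 9.16 at 12 h in knockout cells. In wild-type cells it was at 10.03 at 24 h and 9.30 at 12 h. The wild-type 24 h array stood above the other 3, which lay within 0.29 of each other. The time difference was 0.29 in knockout and 0.74, or 1.67-fold, in wild-type cells. At 24 h the genotype difference was -0.58, outside the range of -0.38 to 0.41 for genes of like level and just short of 1.5-fold, which is 0.585 on the log2 scale; at 12 h it was -0.13. Over both times limma gave -0.36 ± 0.15 (SE) for genotype with an adjusted p of 0.761. For time limma gave 0.51 ± 0.15 (SE) with an adjusted p of 0.302, or 0.042 with a variance that follows the level, and 0.042 to 0.452 over the alternatives. Nt5dc2 overlaps Stab1 in RefSeq's gene order, and its level was 9.05 at 24 h and 8.97 at 12 h in knockout cells, and 9.34 and 8.91 in wild-type cells.

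Markers of other cells and of macrophages themselves also differed at 24 h, beside Mrc1, Cd163 and Stab1. The 7 stromal and fibroblast markers past the level filter had a median genotype difference of -0.82 at 24 h and -0.56 at 12 h, with all 7 below 0 at both times, and a median time difference of 0.51 in knockout and 0.80 in wild-type cells. The summed level of all 9 was 9.27 at 24 h and 8.73 at 12 h on the log2 scale in knockout cells, against 10.08 and 9.25 in wild-type cells, with Lum and Thy1 not above background on any array. Of the 10 macrophage markers, 9 were below 0 in knockout cells at 24 h, with a median of -0.28 against 0.01 over all genes. Adgre1 was at -0.25, Csf1r at -0.26, Itgam at -0.72 and Cx3cr1 at -1.20. The summed macrophage marker level was 14.28 at 24 h and 14.25 at 12 h in knockout cells, and 14.55 and 14.31 in wild-type cells. Endothelial cells can also express Stab1, Mrc1 and Cd36, and 3 of their 8 markers (Kdr, Vwf and Cdh5) were above background on every array, with Tek, Cldn5 and Emcn on none. The summed endothelial level was 7.34 at 24 h and 7.71 at 12 h in knockout cells, and 6.81 and 7.51 in wild-type cells. Kdr and Vwf carried that sum, with genotype differences of 1.32 and 0.64 at 24 h. Pecam1 was at -0.61 and Egfl7 at -0.49, but each was above background on only 3 of 4 arrays. Egfl7 was below the background percentile in knockout cells at 24 h, so the size of its difference is uncertain. The 5 endothelial markers past the level filter had a median genotype difference of -0.02 at 24 h. The part of these lists in the values of Mrc1, Cd163 and Stab1 was not tested, and fewer cells of a type cannot be told apart from less RNA per cell.

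The genes closest in pattern to Stab1 were Hfe, the haemochromatosis gene that acts in iron sensing, F2rl2 and Znrf4, each at a distance of 0.06. F2rl2 and Znrf4 were above the background percentile on 1 array each, wild type at 24 h, so little can be read from their likeness. Hfe was at 7.39 at 24 h and 7.05 at 12 h in knockout cells, and at 7.90 and 7.17 in wild-type cells. Closest to Cd163 were the calcium channel gene Cacna1c (0.01), Mir494 (0.05) and L3mbtl3 (0.06), the first and the second above background on 3 of 4 arrays. The differences of Cd163 lay inside the range for genes of like level, so its small distances are no measure of a shared pattern. No distance to a nearest gene was tested.

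**Figure D3:**
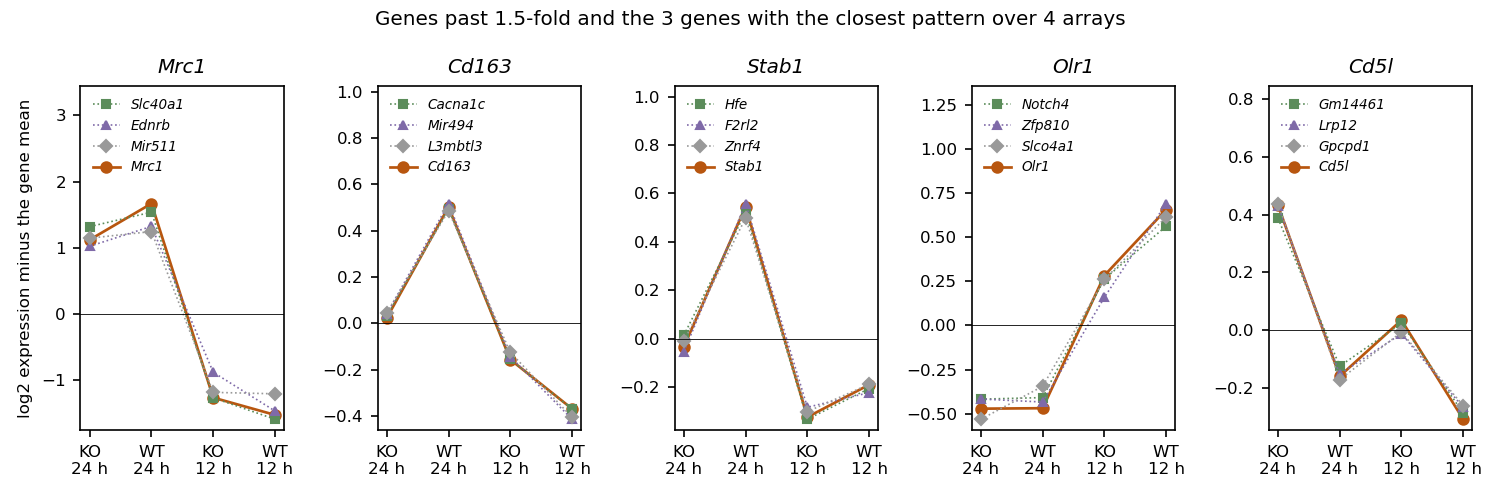
Log2 expression minus the gene's own mean on the 4 arrays (knockout 24 h, wild type 24 h, knockout 12 h, wild type 12 h) for the 5 genes past 1.5-fold in a pairwise comparison (orange circles) and the 3 genes with the closest pattern to each (other symbols); vertical scales differ between panels. The Mrc1 and Olr1 panels split by time, with Slc40a1 at a distance of 0.25 from Mrc1, whereas Cd163 and Stab1 are highest in wild-type cells at 24 h and Cd5l in knockout cells at 24 h.

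The receptors for modified lipoprotein differed among themselves. Olr1, the gene of LOX-1, was at 2.27 at 24 h and 3.02 at 12 h in knockout cells. In wild-type cells it was at 2.27 at 24 h and 3.40 at 12 h. Both 24 h values lay below the 95th percentile of the background genes and both 12 h values above it, so the 24 h levels have an upper bound only. With that percentile in place of the 24 h values, Olr1 was at least 1.33-fold lower at 24 h in knockout cells and at least 1.73-fold lower in wild-type cells; the measured differences were -0.75 and -1.13. Olr1 passed the level filter through its 12 h arrays, where it was high, so its limma test is no support for a difference with time (adjusted p 0.167, and 0.043 to 0.257 over the alternatives). At 12 h Olr1 was 0.37 lower in knockout cells, inside the range for its level. Its closest patterns, with its own 24 h values at background, were those of Notch4 (0.13), Zfp810 (0.14) and the organic anion transporter gene Slco4a1 (0.15).

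Msr1, the class A receptor for acetylated and oxidised lipoprotein, was at 7.95 at 24 h and 8.28 at 12 h in knockout cells. In wild-type cells it was at 7.73 at 24 h and 8.19 at 12 h. The 24 h arrays were the lower ones, with time differences of -0.33 in knockout and -0.47 in wild-type cells, neither outside the range for genes of like level. In limma the time difference was -0.40 ± 0.12 (SE) with an adjusted p of 0.292, or 0.049 with a variance that follows the level, and 0.049 to 0.45 over the alternatives. Knockout cells were above wild-type cells by 0.22 at 24 h and 0.08 at 12 h.

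Cd36, the class B receptor that also carries fatty acids into the cell, spanned 0.38 over the 4 arrays. It read 12.04 at 24 h and 11.76 at 12 h in knockout cells, and 11.85 and 11.66 in wild-type cells. Knockout cells were higher by 0.19 at 24 h and 0.10 at 12 h, and the 24 h arrays were higher by 0.28 in knockout and 0.19 in wild-type cells, all inside the range for genes of like level. For genotype limma gave 0.15 ± 0.11 (SE) with an adjusted p of 0.849.

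Scarb1, which encodes SR-BI, the receptor that exchanges cholesterol with high-density lipoprotein, was at 8.83 at 24 h and 9.08 at 12 h in knockout cells, and at 8.94 and 9.19 in wild-type cells. Its time differences were -0.26 in knockout and -0.25 in wild-type cells, and its genotype differences -0.12 at 24 h and -0.10 at 12 h. In limma the time difference was -0.25 ± 0.11 (SE), with an adjusted p of 0.442.

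Marco, a class A receptor for bacteria and particles, read 2.47 at 24 h and 2.74 at 12 h in knockout cells, and 2.61 and 2.74 in wild-type cells. These levels straddle the upper end of the background genes, so no order can be read from them.

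CD68 sits mainly in late endosomes and lysosomes and is a general macrophage marker. Cd68 was at 12.18 at 24 h and 12.17 at 12 h in knockout cells, and at 12.00 and 12.12 in wild-type cells. The 4 arrays spanned 0.18, the smallest range of the 10 genes, and the largest difference was 0.18 higher in knockout cells at 24 h.

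Cd5l encodes CD5L, also called AIM, a secreted protein of macrophages with scavenger receptor domains that promotes macrophage survival. It was at 8.13 at 24 h and 7.74 at 12 h in knockout cells. In wild-type cells it was at 7.54 at 24 h and 7.39 at 12 h. Both knockout arrays lay above both wild-type arrays, as they did by less for Cd68. Knockout cells were 0.59 or 1.51-fold higher at 24 h, just past the 1.5-fold rule, and 0.34 or 1.27-fold higher at 12 h. After a loess correction on level the 24 h value was 0.58, under the rule. The uncorrected values lay outside the ranges of genes of like level, which ended at 0.49 and 0.25, and at 24 h 392 of 13308 genes, Cd5l included, were as high. Over both times limma gave 0.47 ± 0.13 (SE), with an unadjusted p of 0.018 and an adjusted p of 0.761. In limma 0 of 13308 genes (0.00%) passed for genotype, with 868 (6.52%) at an unadjusted p under 0.05. The closest patterns were those of Gm14461, the receptor gene Lrp12 and the phosphodiesterase gene Gpcpd1, each at a distance of 0.06.

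**Figure D4:**
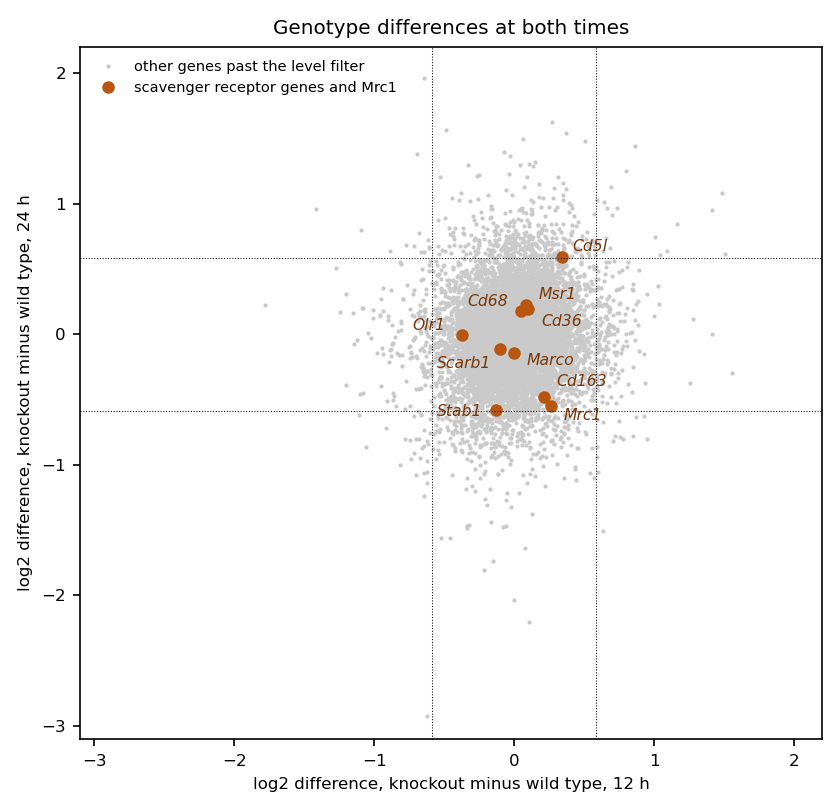
Log2 difference between knockout and wild-type cells at 24 h (vertical axis) and at 12 h (horizontal axis), with 1 grey point per gene past the level filter, orange points for the 10 genes and dotted lines at 1.5-fold. Cd5l lies at 0.59 at 24 h and 0.34 at 12 h, while Stab1, Mrc1 and Cd163 lie low on the 24 h axis, at -0.58, -0.55 and -0.48.

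Counted over the 10 genes, 1 was past 1.5-fold between the genotypes at 24 h (Cd5l, higher), where 6.49% of all genes were, 2.98% higher and 3.51% lower in knockout cells. At 12 h 0 were, where 2.90% of all genes were. With time in knockout cells 2 of 10 were, Mrc1 higher and Olr1 lower, where 6.31% of all genes were, 3.06% higher and 3.25% lower at 24 h. The count was 1, Mrc1, with values under the background percentile set to it, since the Olr1 difference was then -0.41. In wild-type cells 4 of 10 were, Mrc1, Cd163 and Stab1 higher and Olr1 lower, where 8.72% of all genes were, 4.71% higher and 4.01% lower. The genotype difference at 24 h less that at 12 h was past 1.5-fold for Mrc1 and Cd163, both negative, where 10.1% of all genes were, 4.70% positive and 5.42% negative. Medians over the 10 genes were -0.06 and 0.07 for genotype at 24 h and 12 h, and 0.10 and 0.02 for time in knockout and wild-type cells, against medians over all genes between -0.01 and 0.01.

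Among other scavenger receptors, 12 of 15 genes passed the level filter. At 24 h 0 of the 12 were past 1.5-fold between the genotypes, where 6.49% of all genes were. At 12 h 1 was by its measured values, where 2.90% of all genes were. That gene was Megf10, an engulfment receptor, at 3.19 in knockout cells and 2.35 in wild-type cells. It was above the background percentile on 1 array alone, knockout at 12 h, and measured from that percentile it was at least 1.46-fold higher there, under the rule. Clec7a, the beta-glucan receptor dectin-1, had time differences of 0.59 in knockout and 0.48 in wild-type cells. Of the relatives of the mannose receptor, 2 of 3 passed the filter. Ly75 (DEC-205) had time differences of 0.42 in knockout and 1.08 in wild-type cells, and Mrc2 (Endo180), which fibroblasts express, of 0.57 and 0.70. In wild-type cells at 12 h Ly75 was at 2.71, little above the background percentile of 2.65 on that array, so the size of its difference is uncertain. The genotype difference of Mrc2 was -0.65 at 24 h and -0.52 at 12 h, beside the stromal markers, whose part in it was not tested.

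Of the 6 genes of the LDL receptor family 0 were past 1.5-fold between the genotypes and 1 with time, Sorl1, a sorting receptor, at 0.91 in knockout and 1.28 in wild-type cells. With time 6.31% of all genes were past the rule in knockout and 8.72% in wild-type cells. Between the genotypes 6.49% of all genes were past it at 24 h and 2.90% at 12 h. Of 17 receptors and bridging proteins for apoptotic cells, 14 passed the level filter. Of the 14, 2 were higher and 1 lower with time by 1.5-fold in knockout cells, against 3.06% and 3.25% of all genes. In wild-type cells 5 were higher and 1 lower, against 4.71% and 4.01% of all genes. Gas6, which links dying cells to MERTK and AXL, had time differences of 1.13 in knockout and 1.20 in wild-type cells. Those of the complement gene C1qa were 0.52 and 0.93, and those of Cd300lf, a lipid-binding receptor, -0.91 and -0.92. Thbs1, whose product thrombospondin-1 is a ligand of CD36, was at 8.40 in knockout and 9.58 in wild-type cells at 24 h, a difference of -1.19, and at 7.93 and 8.28 at 12 h.

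A list of 12 genes drawn up for haem and haemoglobin handling also held genes without a direct part in it, such as Fth1, Adam10 and Adam17. Among the 12, only Slc40a1 was past 1.5-fold with time, where 6.31% of all genes were in knockout and 8.72% in wild-type cells. Hp, the gene of haptoglobin, was at 2.73 in knockout and 3.49 in wild-type cells at 24 h, a difference of -0.76. Hmox1, which breaks down haem, had time differences of 0.33 in knockout and 0.50 in wild-type cells. Of 13 partners of CD36 and SR-BI, 0 were past 1.5-fold between the genotypes at 24 h, where 6.49% of all genes were. Cav1, caveolin-1, had time differences of -1.10 in knockout and -0.80 in wild-type cells, and Cd9, a tetraspanin partner of CD36, of -0.23 and -0.71. Src, a kinase that acts downstream of CD36, had a genotype difference of -0.70 at 12 h.

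Of 15 transcription factors known from receptor genes, 2 were past 1.5-fold between the genotypes at 24 h, where 6.49% of all genes were. They were Nr1h3, which encodes LXR alpha, at 0.67 and Klf4 at -0.71. Maf, a factor of resident and alternatively activated macrophages, was at 9.23 at 24 h and 8.76 at 12 h in knockout cells, and at 9.80 and 8.69 in wild-type cells, highest on the wild-type 24 h array. Pparg, which drives Cd36, had genotype differences of 0.49 at 24 h and 0.22 at 12 h. Among 10 genes of lipoprotein cholesterol handling, Abca1, the cholesterol exporter, was at 7.99 in knockout and 9.31 in wild-type cells at 24 h, a difference of -1.32, and at 7.19 and 7.22 at 12 h. The 16 genes of clathrin coats and endosomes had 0 past 1.5-fold in any pairwise comparison, with differences between -0.29 and 0.39. Of all genes, between 2.90% (genotype at 12 h) and 8.72% (time in wild-type cells) were past the rule, so 0 of 16 sets these genes little apart. The 9 reference genes had medians between -0.11 and 0.03 in these comparisons.

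**Figure D5:**
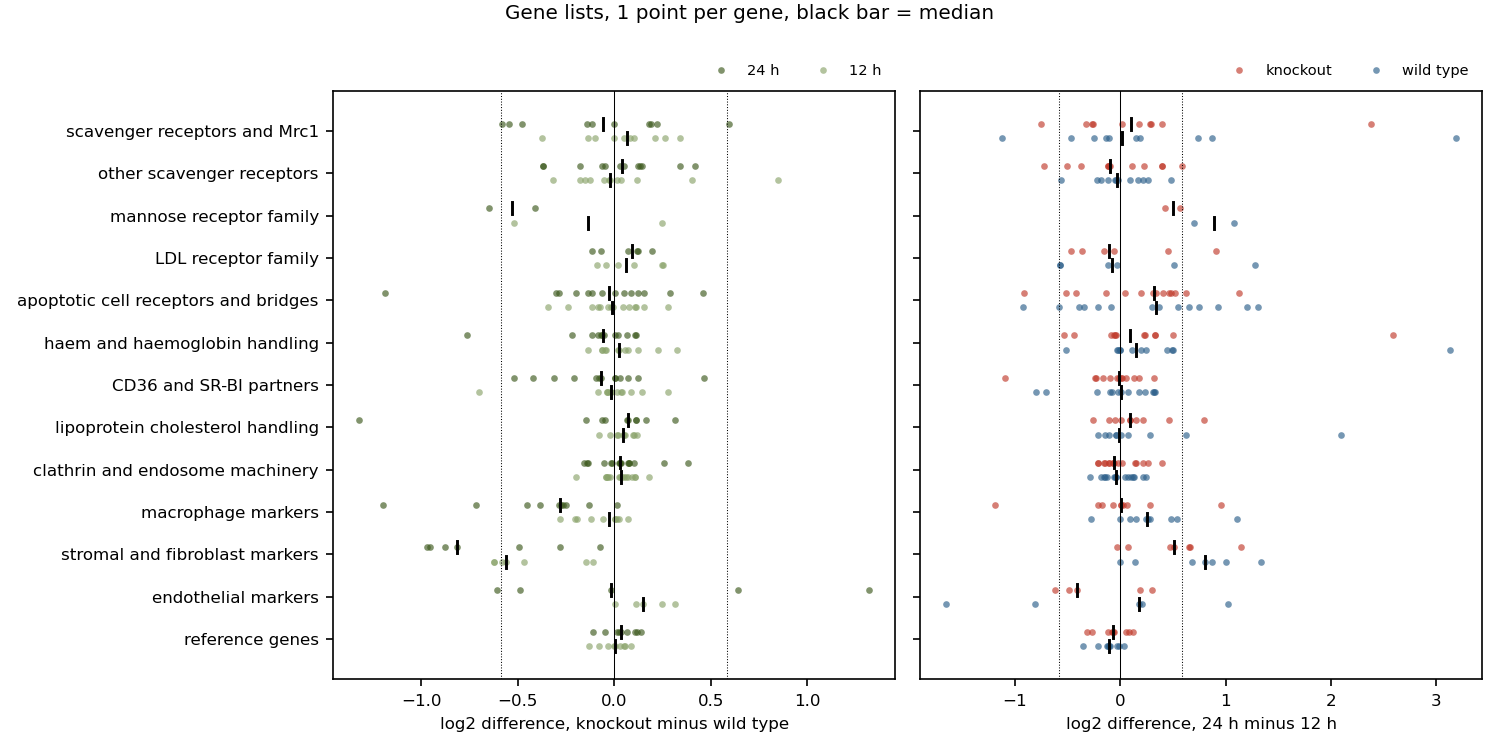
Log2 differences between knockout and wild-type cells (left, 24 h and 12 h) and between 24 h and 12 h (right, knockout and wild type) for the scavenger receptor genes with Mrc1 and for 12 other lists, with 1 point per gene past the level filter, a black bar at the median and dotted lines at 1.5-fold. Stromal markers lie on the negative side at both times, with medians of -0.82 at 24 h and -0.56 at 12 h, whereas the clathrin and endosome genes stay between -0.29 and 0.39 in these 4 comparisons.

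Markers of further cell types were mostly at background. None of 5 adipocyte, 8 neutrophil and progenitor, or 7 lymphocyte markers was above the 95th percentile of the background genes on every array, and 1 of 5 mast cell and basophil markers was (Kit). Among dendritic cell markers 4 of 7 were above it, and the 5 past the level filter had median time differences of -0.15 in knockout and -0.06 in wild-type cells. Itgax was at 0.65 and 0.54, Cd209a at -0.42 and -0.06, and Siglech at -0.23 and -0.41. Of 7 osteoclast markers 5 were above it, and the 6 past the level filter had median time differences of 0.08 in knockout and -0.12 in wild-type cells. Ctsk was at -0.64 and -0.76, Dcstamp at 0.24 and 0.95, and Acp5 at 0.24 and -0.62.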

How the data were processed

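Transcript levels were measured with an Affymetrix array in 4 RNA pools of mouse macrophages, grouped by the genotype and time in their labels, with 1 array per group. The values were deposited on a log2 scale, 1 per probe set and array, and RMA is named in the submitters' processing notes. RMA equalises the distributions of the arrays, so a shift of all transcripts together cannot be seen.

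Of 41345 probe sets, 23521 had 1 gene symbol in the platform annotation; 1814 with several were not used. A gene took its probe set with the highest mean, and the 13308 of 22180 genes at or above the 40th percentile of mean level were kept. Differences are knockout minus wild type and 24 h minus 12 h, counted at 1.5-fold. The only test was limma 3.58.1 (R 4.3.3) with genotype and time as added terms and Benjamini-Hochberg adjustment over all 13308 genes. It was also run on simulated data in which the genotype effect was the same at both times. Those data cannot show how it performs where that effect changes with time. The number of arrays limits the precision.

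The 10 genes and 19 other lists were chosen with earlier results of these data known. Picked for naming were the 10 genes, Hilpda, and from each list up to 5 genes with the largest pairwise difference past 1.5-fold. Defining cell markers were added, as were the 3 genes nearest in pattern to each of the 10 genes past 1.5-fold. Not every gene so picked from the lists is given in the text. Hmox1, Pparg, Adgre4 and Nt5dc2 were named after their values were seen. Alternatives covered the level filter, fold rule, normalization, probe set rule and variance model.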

Additional observations from a re-analysis of the deposited data

Results flagged for a closer look

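For Mrc1 the genotype difference was -0.55 at 24 h and 0.26 at 12 h, and the first less the second was -0.81 on the log2 scale. For Cd163 it was -0.48 at 24 h and 0.21 at 12 h, with -0.69 for the first less the second. Both are listed because knockout lay below wild type at one time and above it at the other, by more than 1.5-fold between the times. With 1 array per group this was not tested, and 10.1% of all genes were past 1.5-fold in the same measure. Of the background receptor genes, 14.4% were. The value of Cd163 lay inside the central 95% of genes of like level, -0.93 to 0.83, and that of Mrc1 outside it, -0.50 to 0.39.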

How the results depend on the processing

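No paired analysis was possible because each group has 1 array and the labels give no replicate numbers; leaving out a replicate was likewise not possible. Over the alternatives of filter, normalization and probe set rule, all 285 values recomputed for the 10 genes moved by less than 1 SD of the background receptor genes. The filters only drop genes, and each of the 10 genes has 1 probe set, so neither the filters nor the probe set rule could move a value. Only the normalization alternatives, the loess on level included, could do so. Of the 285 values, 6 took another sign, all of differences near 0 (reported sizes of at most 0.013): Olr1 at 24 h and Marco at 12 h between the genotypes, and the change of the genotype difference of Scarb1. The number of genes past 1.5-fold between the genotypes at 24 h was 864, and 380 past the 60th percentile of level, 2278 at 1.3-fold and 103 at 2-fold. At 12 h it was 386, and 91, 1317 and 34 in the same order, and 628 with no level filter. For time in knockout cells it was 840, and 410, 2234 and 150; for time in wild-type cells 1161, and 663, 2715 and 260. For the change of the genotype difference it was 1346, and 460, 3122 and 249 in the same order, and 2316 with no level filter. Of the 10 genes, those past the rule between the genotypes at 24 h numbered 1 (Cd5l), 4 at 1.3-fold, and 0 at 2-fold or after a loess on level, where Cd5l was at 0.58. With time in knockout cells they numbered 2, and 1 past the 60th percentile, at 2-fold, or with values under the background percentile set to it, an alternative chosen after seeing the data; in wild-type cells 4, and 2 past the 60th percentile or at 2-fold. For the change of the genotype difference they numbered 2, and 1 past the 60th percentile, a filter that removes Cd163, Marco and Olr1, and 0 at 2-fold. In limma, 0 genes passed for time, but 146 past the 60th percentile and 540 with a variance that follows the level; Mrc1, Msr1, Stab1 and Olr1 were among the 540. The adjusted p of Mrc1 for time ranged from 0.00048 to 0.17 over 6 limma alternatives. For genotype 0 genes passed in limma under these alternatives. Signals near background limit what can be said of Marco and Olr1. The same holds for Megf10, F2rl2, Znrf4, Cacna1c, Mir494, Pecam1, Egfl7, Ly75, Hp, Dcstamp and, at 12 h, Mir511.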
